A study of Homo sapiens with 30 samples.

Results

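Glycolysis splits glucose into pyruvate, and lactate dehydrogenase turns pyruvate into lactate when oxygen cannot take up the electrons. Several of its steps can be run by more than one isoenzyme, each encoded by its own gene and used in different tissues. The hypoxia-inducible factors (HIF) are transcription factors that VHL, part of a ubiquitin ligase, marks for destruction while oxygen is present, and many glycolytic genes are among their known targets. Cells without VHL keep HIF in air.

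The account below covers 31 genes named for their place in glycolysis: the hexokinases, the phosphofructokinases and the enzymes that make and remove their activator fructose 2,6-bisphosphate, the aldolases, and the later steps to lactate, with the glucose transporter SLC2A3 and the gluconeogenic enzyme FBP1. A gene was followed through the probe set that carried its symbol alone and was brightest on average. Of the 31 genes, 26 had such a probe set, out of 12680 genes in all. TPI1, GAPDHS, BPGM, PKM and FBP1 are not analysed here. The upper 60% of genes by mean level, 7608 genes, were tested, and 22 of the 26 were among them. HK2, PFKFB3, PGAM2 and PGK2 were too dim and are given as intensities. PFKFB2 lay at the 41.3 percentile of mean level, just inside the tested genes, and HK2 lay at 33.7, just outside.

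RNA came from 3 human carcinoma lines grown as monolayers and measured on a custom Affymetrix array, with 30 arrays of 1 sample each. The renal carcinoma line RCC4 was used without VHL (VHL-null) and after wild-type VHL had been put back (VHL-restored), with 10 arrays each. These cells had 0, 1, 2, 4, 6 or 18 h of hypoxia, or 18 h followed by 1 or 4 h of reoxygenation. HCT116, a colon carcinoma line, was measured at 0, 12 and 24 h with wild-type p53 and without p53 (p53-null), on 6 arrays. H1299, a non-small cell lung cancer line that lacks p53, was measured at 0 and 24 h as p53-null cells and as cells with p53 put back (p53-restored), on 4 arrays. Hypoxia was oxygen below 0.01% in an anoxic incubator. The 4 RCC4 groups at 0 and 18 h had 2 independent replicates each, and every other group was a single array. Whether the restored or p53-null cells were clones or pools is not given in the sources used here.

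Several features of the arrays bear on the values. They come in 2 sets, told apart by 6 control entries, which 18 arrays leave blank (set 1) and 12 fill in (set 2). All HCT116 and H1299 arrays are in set 1, together with RCC4 at 2 h, at 6 h and, for replicate 1, at 0 and 18 h, and the remaining RCC4 arrays are in set 2. Set 1 arrays had a median listed intensity of 145 to 174 and set 2 arrays one of 201 to 222, so RCC4 values are read within a set or with the set in the fit. Readings are given as deposited, and differences on the log2 scale after each array was centred on its median gene. VHL itself was dim: its intensity was 14 to 109 (median 45) on the 10 VHL-null arrays and 0 to 40 (median 5) on the 10 VHL-restored arrays, 2 of them null. Which stretch of the transcript that probe set reads is not given in the sources used here, so it cannot serve as a check of the genotype labels. Of 2 renal markers, the summed intensity was 400 to 755 in RCC4, 211 to 252 in HCT116 and 172 to 222 in H1299. The colon marker KRT20 was 0 or null on all HCT116 arrays, and 3 of 7 colon markers stood above the array median in HCT116 and H1299 alike and 1 to 3 in RCC4. Of 4 lung markers 2 did so in each line. These lists therefore did not set HCT116 or H1299 apart.

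The 2 arrays labelled H1299 p53-restored went against their labels in hypoxia genes. For the 22 tested members, the array labelled p53-restored at 0 h lay within 0.23 (log2) of the p53-null array at 24 h, with a median absolute difference of 0.06. The array labelled p53-restored at 24 h lay as close to the p53-null array at 0 h, with a median of 0.07 and a largest difference of 0.23. At matched labelled times the median absolute difference was 0.39 at 0 h and 0.24 at 24 h, and the largest were 1.37 and 1.38. Of 10 tested HIF targets outside glycolysis, 8 were higher at 24 h than at 0 h in p53-null H1299 (median 0.86), and 2 were higher in p53-restored H1299 (median -0.72). CDKN1A, an inhibitor of the cell cycle chosen after its values were seen, ran with the labels, from 105 at 0 h to 259 at 24 h in p53-null cells and from 138 to 329 on the arrays labelled p53-restored. It was also higher at 18 h than at 0 h in both replicates of both RCC4 genotypes. In HCT116, however, it read 212 at 0 h and 227 at 24 h in p53-null cells, and 313 and 229 in p53 wild-type cells. As a single gene that did not rise in every line, it is a weak check of the time labels. The values thus did not settle which labels these arrays should carry. Tests that use them are given with and without them.

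GAPDH, which oxidises glyceraldehyde 3-phosphate, was at the top of the scale. Its brightest probe set was the highest value of the array on 28 of 30 arrays, and a second probe set of the gene was tied with it on 10. On 11 arrays more than 1 probe set held the highest value, so the fold changes of GAPDH may be bounded by a ceiling there. On the others, being the highest value does not by itself show a ceiling. In HCT116 at 0 h the second probe set was below the highest value, at 1802 in p53-null and 2300 in p53 wild-type cells. At 12 h it read 3916 and 3900 and was tied at the highest value. By that probe set the 24 h difference was 1.13 and 0.78 on the log2 scale, and by the brightest it was 0.26 and 0.10.

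**Figure D1:**
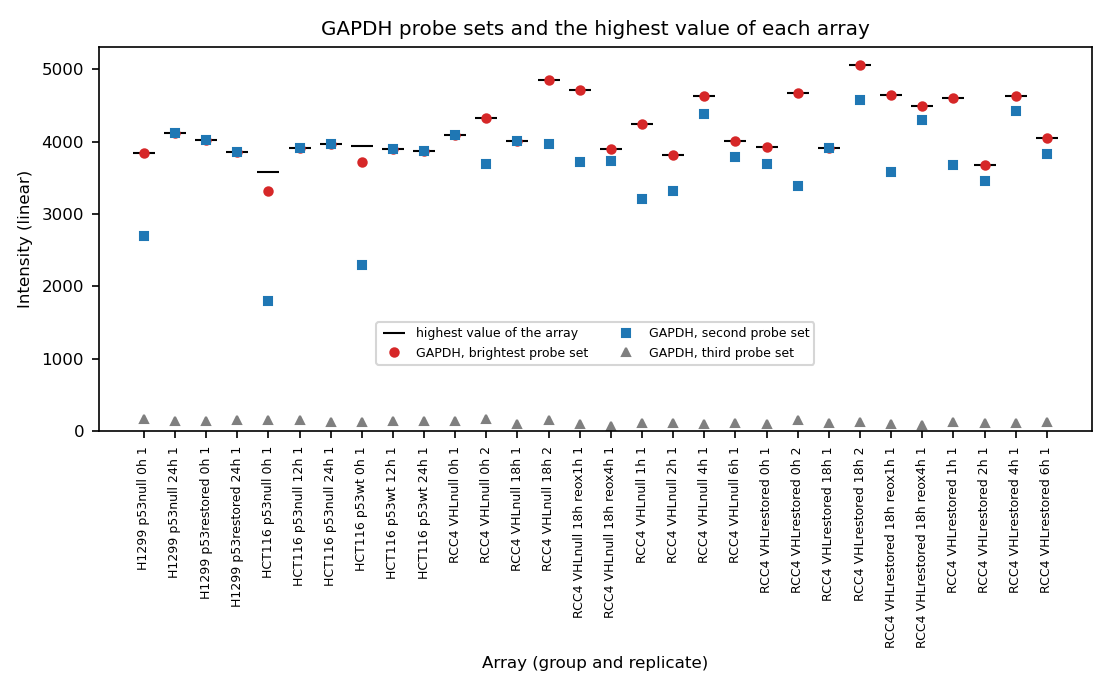
Intensity (linear, vertical) of 3 GAPDH probe sets and the highest value of any probe set (black bars) on each of the 30 arrays (horizontal, by group and replicate). The brightest GAPDH probe set lies on the bar on 28 arrays, and the second lies on it on 10 and falls to 1802 and 2300 in HCT116 at 0 h.

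HIF binds DNA through a short core, ACGTG or GCGTG, of which only the form ACGTG was searched here. The 250 bases before the start of each member were read from RefSeq (GRCh38.p14). This form was sought on both strands, as ACGTG or CACGT, counting overlapping matches separately. Of the 26 members with a probe set, 24 had a promoter entry, and 13 of these held at least 1 match in some window. Of all 27305 genes 21.7% did, but members had more windows per gene, with 47 windows for 24 genes. Over windows, 16 of the 47 member windows (34.0%) held the motif, against 6501 of 35116 windows of all genes (18.5%). A match is a run of letters, not a site of binding. The windows below are those of the isoenzymes that the results turn on, each 5′ to 3′ on the strand of the gene and ending at the base before its start, with the motif in capitals. ENO2, ALDOC, PGK1 and the first of the 2 LDHA windows hold it, and the second LDHA window, which is not shown, has 0 matches.
ENO2, chr12:6914330-6914579 (+): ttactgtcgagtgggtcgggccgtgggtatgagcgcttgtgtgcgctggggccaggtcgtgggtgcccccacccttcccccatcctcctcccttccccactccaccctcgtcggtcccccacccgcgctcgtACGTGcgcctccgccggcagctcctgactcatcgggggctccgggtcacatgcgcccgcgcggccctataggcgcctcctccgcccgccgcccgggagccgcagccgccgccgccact
ALDOC, chr17:28576896-28577145 (-): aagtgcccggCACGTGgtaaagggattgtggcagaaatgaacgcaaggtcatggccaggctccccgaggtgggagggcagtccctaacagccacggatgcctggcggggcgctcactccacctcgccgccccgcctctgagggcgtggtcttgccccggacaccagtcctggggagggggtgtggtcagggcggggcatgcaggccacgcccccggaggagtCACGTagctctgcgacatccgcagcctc
PGK1, chrX:78103998-78104247 (+): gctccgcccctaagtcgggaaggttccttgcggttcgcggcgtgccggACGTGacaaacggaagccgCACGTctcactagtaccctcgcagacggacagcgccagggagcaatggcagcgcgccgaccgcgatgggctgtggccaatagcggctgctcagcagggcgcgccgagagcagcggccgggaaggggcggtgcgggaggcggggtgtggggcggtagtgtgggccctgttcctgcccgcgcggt
LDHA, chr11:18394313-18394562 (+): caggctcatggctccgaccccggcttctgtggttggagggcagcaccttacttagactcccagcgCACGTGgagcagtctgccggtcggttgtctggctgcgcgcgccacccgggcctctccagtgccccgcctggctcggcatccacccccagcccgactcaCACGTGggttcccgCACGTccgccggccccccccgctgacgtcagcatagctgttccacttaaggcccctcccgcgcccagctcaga
The window of ENO2 has 1 match, that of PGK1 2, that of ALDOC 3 and the LDHA window shown 5, where a CACGTG counts on both strands. The windows of PFKFB4, ENO1 and LDHB hold no match of this form. The form GCGTG was not counted in any window, but it can be read in those of PFKFB4 and ENO1, among others. No match here therefore does not mean that a window lacks the core.
PFKFB4, chr3:48556804-48557053 (-): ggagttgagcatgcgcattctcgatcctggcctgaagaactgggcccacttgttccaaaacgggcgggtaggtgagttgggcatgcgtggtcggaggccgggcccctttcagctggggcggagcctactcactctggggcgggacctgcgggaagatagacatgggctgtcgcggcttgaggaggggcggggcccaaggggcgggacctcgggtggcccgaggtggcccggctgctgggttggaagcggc
ENO1, chr1:8878687-8878936 (-): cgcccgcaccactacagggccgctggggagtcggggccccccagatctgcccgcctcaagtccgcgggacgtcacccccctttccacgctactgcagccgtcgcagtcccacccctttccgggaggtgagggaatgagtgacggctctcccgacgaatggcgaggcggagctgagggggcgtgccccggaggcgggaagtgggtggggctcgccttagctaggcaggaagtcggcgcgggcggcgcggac
LDHB, chr12:21657843-21658092 (-): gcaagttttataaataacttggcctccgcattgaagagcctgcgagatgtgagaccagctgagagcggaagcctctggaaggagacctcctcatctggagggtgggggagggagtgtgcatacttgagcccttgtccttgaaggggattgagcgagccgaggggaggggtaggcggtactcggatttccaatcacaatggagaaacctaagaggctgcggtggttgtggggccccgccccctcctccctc
Among the other members tested, HK1 had no match of the form ACGTG in any of its windows, though GCGTG occurs there on the other strand. GPI, PFKP, ALDOA and GAPDH had a match in at least 1 window. PKLR, PFKM and LDHC, which did not pass the test for hypoxia in any line, also had a match in at least 1 window.

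The comparison of 18 h with 0 h in VHL-restored RCC4 asked which enzymes respond to hypoxia when HIF can be degraded in air. ENO2, the neuronal enolase isoenzyme, read 205 and 259 on the arrays at 0 h and 909 and 1200 at 18 h. HK1, a hexokinase that phosphorylates glucose, read 357 and 652 at 0 h and 717 and 1452 at 18 h. PFKFB4, which sets the level of fructose 2,6-bisphosphate, read 198 and 281 at 0 h and 508 and 743 at 18 h. The 18 h arrays of all 3 genes lay above both 0 h arrays. RNA was pooled over the cells of a culture, so fewer responding cells and a smaller change per cell cannot be told apart. PFKP, the platelet type of phosphofructokinase, read 590 and 1094 at 0 h and 1000 and 1559 at 18 h, so its groups overlapped between array sets although it was higher at 18 h within each set.

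In limma over all 20 RCC4 arrays with the array set as a term, these 4 of 22 members rose, and none fell, where 0.421% of all tested genes were called in either direction. ENO2 rose by 2.15 ± 0.37 (log2, SE), a 4.45-fold change (adjusted p = 0.0324). PFKFB4 rose by 1.37 ± 0.27, HK1 by 1.10 ± 0.21 and PFKP by 0.67 ± 0.13 (adjusted p = 0.0458 for each). Of the 22 members 20 had a positive difference, with a median of 0.22, against 65.9% of all genes tested and a median of 0.05. A second PFKFB4 probe set gave 1.32, and a second PFKP probe set gave 0.13. These calls were lost when 1 of the 4 VHL-restored replicates, or 1 of the VHL-null replicates at 0 h, was left out, and then 0 members were called.

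The 8 replicated arrays alone, with the replicate number as a block, gave the same differences with smaller errors. There 9 of 22 members rose, where 6.6% of all tested genes were called, and this fit leaves out the short times and reoxygenation. It added ALDOC, the brain aldolase (0.70 ± 0.10, adjusted p = 0.000298), and ALDOA, the muscle aldolase (0.49 ± 0.11, adjusted p = 0.00803). It also added GPI, which turns glucose 6-phosphate into fructose 6-phosphate (0.43 ± 0.10, adjusted p = 0.0102), PGK1, an ATP-making step (0.42 ± 0.11, adjusted p = 0.023), and ENO1 (0.51 ± 0.13, adjusted p = 0.0261). ALDOC read 407 and 463 at 0 h and 693 and 693 at 18 h, and PGK1 read 1100 and 1669 at 0 h and 1484 and 2089 at 18 h. LDHA, the lactate dehydrogenase subunit of muscle, read 1358 and 1895 at 0 h and 1792 and 2543 at 18 h and did not pass in either fit. Without a block, the same 8 arrays called 1 member, ENO2.

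The shorter times differed between the array sets. In set 1, ENO2 in VHL-restored cells read 205 at 0 h, 281 at 2 h, 611 at 6 h and 909 at 18 h. In set 2, it read 259 at 0 h, 1293 at 1 h, 1309 at 4 h and 1200 at 18 h. The set 1 course was thus graded, while the 1 h and 4 h arrays of set 2 already stood at or above the 18 h value. HK1 followed the same order, with 357, 399, 512 and 717 in set 1 against 652, 1278, 1281 and 1452 in set 2. PFKFB4 read 198, 245, 386 and 508 in set 1 and 281, 752, 735 and 743 in set 2. The 10 tested HIF targets outside glycolysis showed the same split, with median differences from 0 h of 1.46 at 1 h and 1.37 at 4 h in set 2, and of 0.17 at 2 h and 0.70 at 6 h in set 1. Time and set cannot be told apart at these 4 times.

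With 1 and 2 h pooled, and 4 and 6 h pooled, no member was called in VHL-restored cells, where 0.0394% and 0.131% of all genes were called. Each time fitted on its own, a choice made after seeing the data, called 7 members at 1 h (background 7.79%), 0 at 2 h (0.342%), 8 at 4 h (10%) and 2 at 6 h (0.552%), all higher. Each of these times was 1 array per genotype, whose spread was assumed to be that of the replicated groups at 0 and 18 h, so these p-values hold no replicate of the time itself. The members called at 6 h were ENO2 (1.51 ± 0.13, adjusted p = 7.76e-06) and PFKFB4 (0.89 ± 0.14, adjusted p = 0.00313). At 4 h they were ENO2, PFKFB4, HK1, ALDOC, PFKP, PGK1, ALDOA and GPI, and at 1 h the same genes except GPI.

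**Figure D2:**
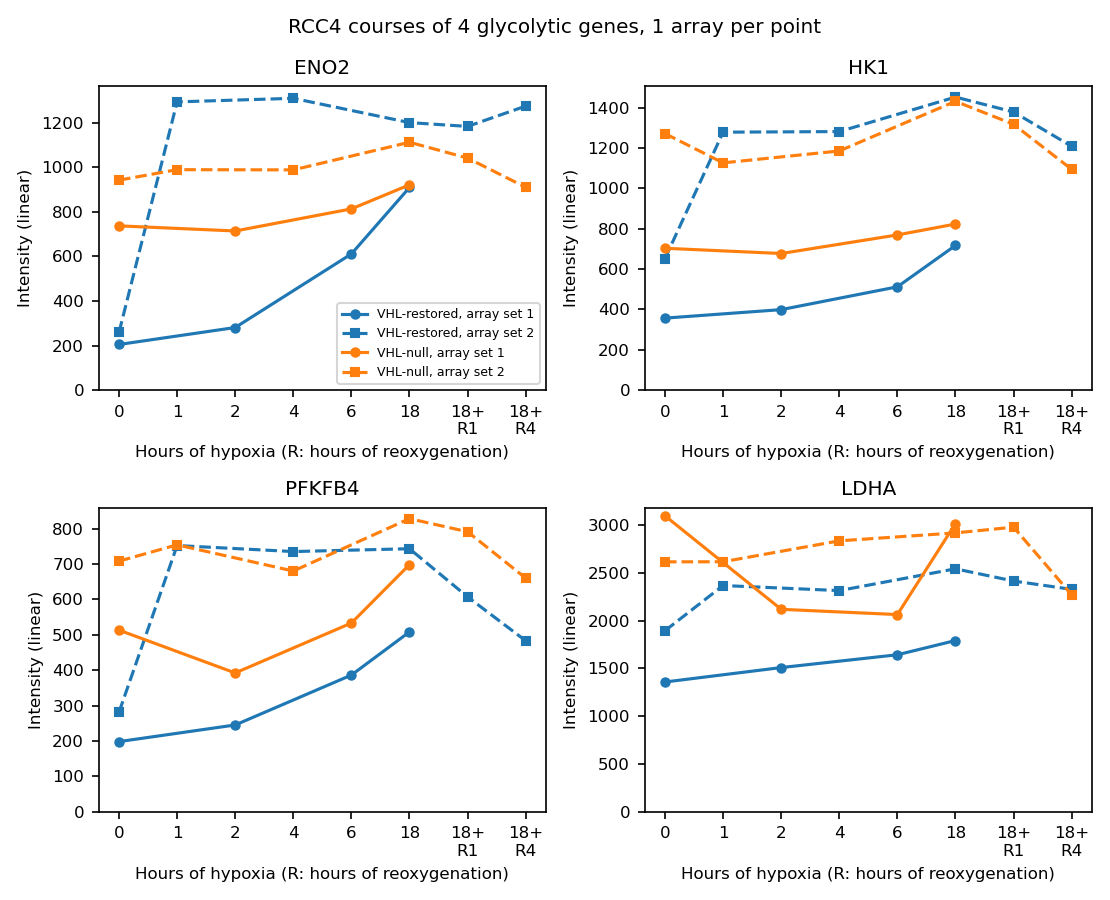
Intensity (linear, from 0) of ENO2, HK1, PFKFB4 and LDHA in RCC4 by hours of hypoxia and of reoxygenation after 18 h (R1, R4; time points evenly spaced), 1 array per point, with colour for genotype and line style for array set. ENO2 in VHL-restored cells climbs from 205 to 909 over set 1, while in set 2 it is at 1293 by 1 h.

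In VHL-null RCC4 the same enzymes were already high at 0 h. ENO2 read 737 and 942 at 0 h and 921 and 1112 at 18 h, HK1 703 and 1271 against 823 and 1431, and PFKFB4 513 and 708 against 698 and 828. ENO2 differed by 0.31 ± 0.37 and PFKFB4 by 0.37 ± 0.27, and neither passed (adjusted p = 0.999 for both). No member of the 22 was called at 18 h, with 0% of all genes called and 298 genes at an unadjusted p under 0.05. The 8-array fit with the replicate block also called 0 members, with 0.486% of all genes called. No member was called at the pooled 1 and 2 h, at the pooled 4 and 6 h or after reoxygenation, where 0% of all genes were called in limma (385, 834 and 367 genes at an unadjusted p under 0.05). With each time on its own, again 0 members were called at 1 h (3.58% of all genes), 2 h (0.118%), 4 h (9.58%) and 6 h (0.0263%) of low oxygen, and likewise after reoxygenation for 1 h (0.0526%) or 4 h (1.29%).

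At 0 h, VHL-null and VHL-restored RCC4 were compared for what the loss of VHL does in air. Of the 22 members 4 were higher in VHL-null cells and 0 lower, where 2.76% of all genes were called. ENO2 was higher by 1.73 ± 0.37 (3.31-fold, adjusted p = 0.0244), PFKFB4 by 1.24 ± 0.27 (adjusted p = 0.0237) and HK1 by 0.89 ± 0.21 (adjusted p = 0.0418). SLC2A3, a high-affinity glucose transporter, read 270 and 324 without VHL and 194 and 240 with it, a difference of 0.37 ± 0.09 (adjusted p = 0.0326). With the replicate block on the 8 arrays, 6 members were higher (background 7.51%). The additions were ALDOC, with 634 and 679 in VHL-null cells against 407 and 463 (0.52 ± 0.10, adjusted p = 0.00322), and LDHA, with 3098 and 2616 against 1358 and 1895 (0.76 ± 0.17, adjusted p = 0.00919). The LDHA difference was 1.23 in set 1 and 0.30 in set 2, so its size rested on set 1. Without replicate 1 of the VHL-null group, 0 of the 20-array calls remained, and without replicate 1 or replicate 2 of the VHL-restored group there were also 0. Without replicate 2 of the VHL-null group there were 2.

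At 18 h SLC2A3 still differed between the genotypes. It read 290 and 380 without VHL and 205 and 237 with it, a difference of 0.49 ± 0.09 (adjusted p = 0.00743), and it was the member called, where 2.17% of all genes were called. The call was lost without replicate 2 of the VHL-null group or without either replicate of the VHL-restored group at 18 h. In the 8-array fit with the replicate block it was again the member called (adjusted p = 0.00548; background 7.66%), so the share of members called there was below that of all genes. SLC2A3 was higher in VHL-null cells at each of the 8 states of hypoxia and reoxygenation, by 0.09 to 0.53. Hypoxia did not carry it past the test in either genotype (0.08 ± 0.09 and 0.20 ± 0.09 at 18 h).

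The interaction, which is the 18 h difference in VHL-null cells less that in VHL-restored cells, called 0 members and 0% of all genes in the 20-array fit, with 145 genes at an unadjusted p under 0.05. The 8-array fit with the replicate block called 3 members (background 0.565%). They were ENO2 (-1.84 ± 0.15, adjusted p = 1.97e-06), PFKFB4 (-1.01 ± 0.16, adjusted p = 0.00374) and HK1 (-0.87 ± 0.15, adjusted p = 0.0103). The smaller change in VHL-null cells was seen in both array sets, as ENO2 differed by 0.28 and 0.35 there against 2.10 and 2.21 in VHL-restored cells. The replicate number equals the array set at these times.

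After 18 h of hypoxia and 1 or 4 h back in oxygen, no member was called in either genotype with the times pooled, where 0.0526% of all genes were called in VHL-restored cells. ENO2 in VHL-restored cells read 1183 after 1 h and 1274 after 4 h of reoxygenation, beside 1200 at 18 h on the same array set, so its level had not returned to the 259 of 0 h. PFKFB4 read 743 at 18 h, 607 after 1 h and 483 after 4 h in VHL-restored cells, and 828, 791 and 660 in VHL-null cells. After centring, PFKFB4 differed from 18 h by -0.19 and -0.33 in VHL-restored cells. HK1 read 1452, 1378 and 1208 in VHL-restored cells, but after centring it differed from 18 h by 0.02 and 0.01. In VHL-null cells it read 1431, 1317 and 1094, a difference of -0.06 and -0.21 after centring. With each time on its own, 0 members were called at 1 h (0.342% of all genes) and 1 of 22 at 4 h, GPI (0.46 ± 0.12, adjusted p = 0.0346), on 1 array and where 5.78% of all genes were called, so the members' share was no higher than that of all genes. The dim PFKFB3, which makes fructose 2,6-bisphosphate, read 45 at 18 h and 69 after 1 h, and was null after 4 h, in VHL-restored cells of this set. Of all genes tested, 74.8% had a positive value after reoxygenation in VHL-restored cells, so the 18 of 22 members with a positive value there do not set the pathway apart.

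In HCT116 the enzymes of nearly every step were higher after hypoxia in both p53 genotypes. ENO2 read 125 at 0 h, 808 at 12 h and 812 at 24 h in p53-null cells, and 124, 734 and 868 in p53 wild-type cells. ALDOC read 373, 933 and 1082 in p53-null and 375, 975 and 1151 in p53 wild-type cells. PGAM1, the phosphoglycerate mutase of most tissues, read 608, 1295 and 1432, and 696, 1333 and 1416. LDHA read 958, 1899 and 2074, and 978, 1913 and 1868. In each of these genes both 12 h and both 24 h arrays lay above both 0 h arrays, and the p53 genotypes lay close together. GPI went from 623 and 539 to 1357 and 1552 at 24 h, and PGK1 from 866 and 801 to 1601 and 1611.

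The genotypes served as replicates here, so these tests measure repeatability over genotypes and not over independent cultures of the same cells. In limma over the 10 HCT116 and H1299 arrays, which share an estimate of the spread, ALDOC rose by 1.34 ± 0.08 at 12 h (adjusted p = 0.0304; 0.0131% of all genes called) and by 1.56 ± 0.08 at 24 h (adjusted p = 0.0136; 0.0789%). No other member was called there, although 20 of 22 were higher at both times, with medians of 0.69 and 0.73 against 0.05 and 0.04 for all genes. Without the 2 arrays labelled H1299 p53-restored, a choice made after seeing the data, 9 members rose at 12 h (background 0.736%) and 10 at 24 h (background 4%), and 0 fell. At 24 h these were ENO2 (2.63 ± 0.09, 6.17-fold, adjusted p = 0.00226), HK1 (1.57 ± 0.09), ALDOC (1.56 ± 0.07) and PFKFB4 (1.48 ± 0.10). GPI (1.32 ± 0.13), PGAM1 (1.13 ± 0.08), LDHA (1.03 ± 0.08), PFKP (0.98 ± 0.10), PGK1 (0.95 ± 0.08) and ALDOA (0.91 ± 0.08) were the others, with adjusted p between 0.00436 for ALDOC and 0.0254 for PFKP. The differences of the 22 members are the same with and without these arrays, and the error is what changed.

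In p53-null H1299, ENO2 read 95 at 0 h and 243 at 24 h, HK1 188 and 419, PFKFB4 181 and 421, and GPI 463 and 853. SLC2A3 read 324 and 744, and PGK1 1054 and 1654. On the arrays labelled p53-restored the 0 h values were the higher ones, with ENO2 at 269 and 85, HK1 at 462 and 189, PFKFB4 at 427 and 185, and SLC2A3 at 784 and 310. ALDOC, which rose in HCT116, read 355 and 364 in p53-null and 339 and 322 on the p53-restored arrays. Over all 4 arrays no member was called (0% of all genes, with 152 genes at an unadjusted p under 0.05), and the median difference was 0. Without the p53-restored arrays 17 of 22 members were higher, with a median of 0.33, and again 0 were called, where 0.302% of all genes were. ENO2 (1.24 ± 0.12, adjusted p = 0.0519), HK1 (1.11 ± 0.13, adjusted p = 0.0665) and PFKFB4 (1.17 ± 0.14, adjusted p = 0.0709) were the nearest to the threshold. There, 1 array stood on each side of the comparison, and its spread was assumed to be that of HCT116.

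**Figure D3:**
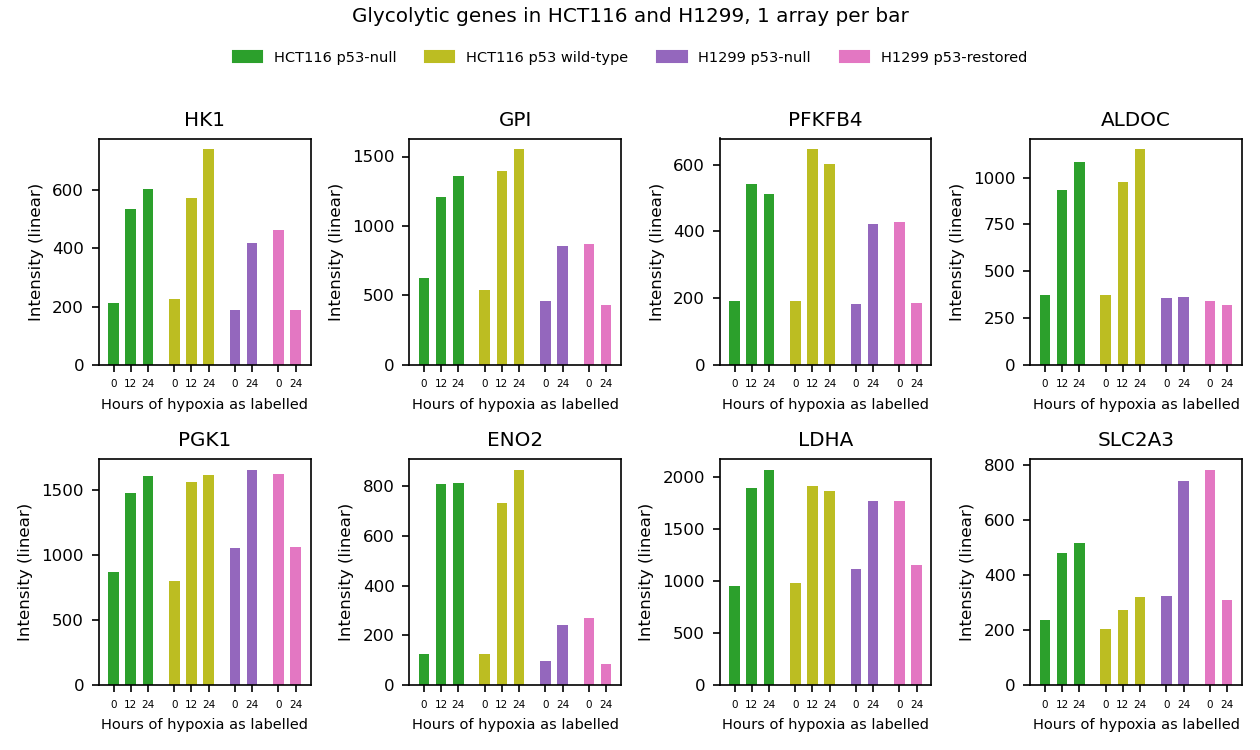
Intensity (linear, bars from 0) of 8 glycolytic genes in HCT116 at 0, 12 and 24 h and in H1299 at 0 and 24 h, 1 array per bar, with colour for line and p53 genotype. ENO2 goes from 125 and 124 to 812 and 868 in HCT116, and the bars labelled H1299 p53-restored run opposite to the p53-null bars.

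Across the 6 backgrounds (line and genotype), the longest hypoxia was compared with 0 h with replicates averaged. Of the 22 members 19 had a positive mean difference, with a median of 0.30 against 0.03 for all genes, and 0 members and 0% of all genes were called, with 955 genes at an unadjusted p under 0.05. ENO2 averaged 1.24 ± 0.55 (adjusted p = 0.397). Without the background labelled H1299 p53-restored, ENO2 averaged 1.79 ± 0.36, PFKFB4 1.17 ± 0.17 and HK1 1.12 ± 0.20 over the other 5, with an adjusted p of 0.117 for each. The median of the 22 was then 0.51, and 0 members were called where 0.0657% of all genes were.

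**Figure D4:**
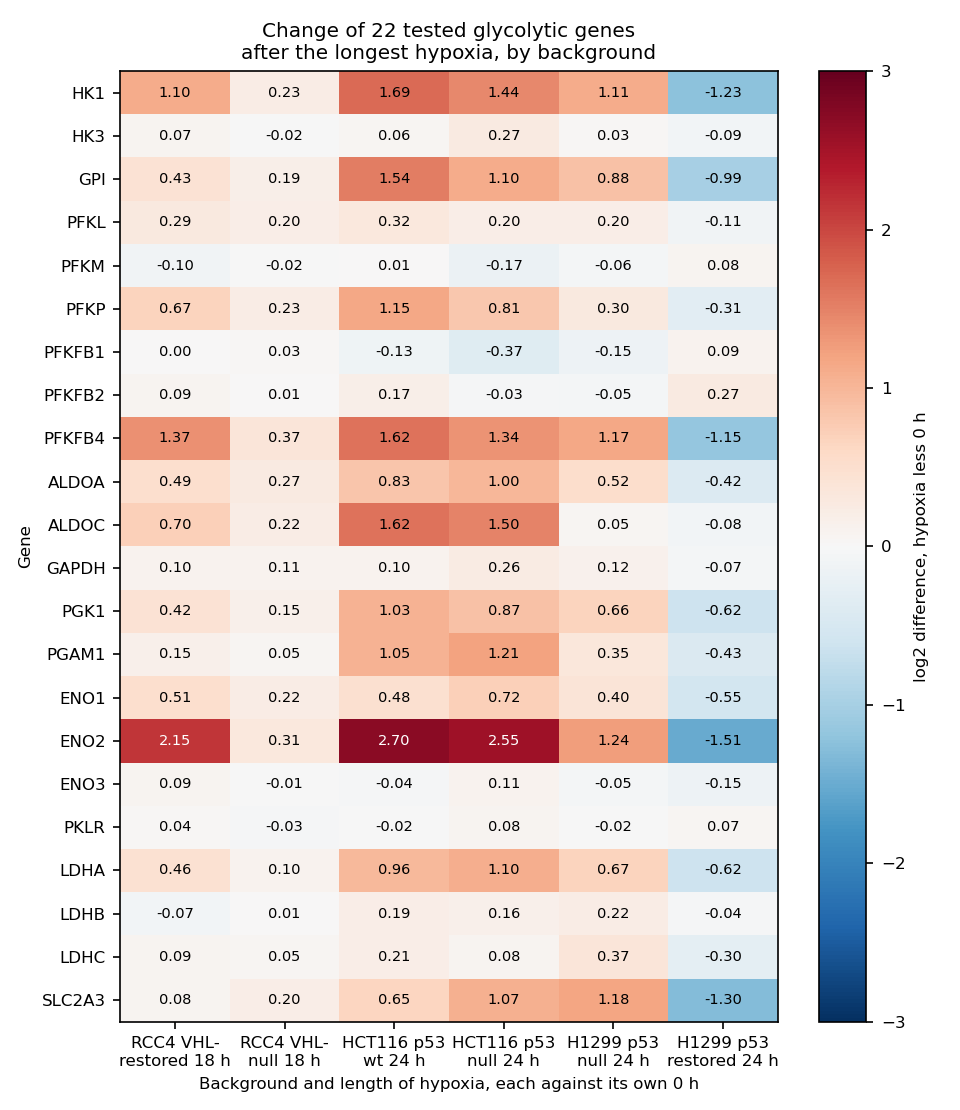
Log2 difference between the longest hypoxia and 0 h (colour and number) for the 22 tested genes (rows) in 6 backgrounds (columns, RCC4 as the mean of 2 replicates and the others from 1 array on each side). ENO2 runs from 0.31 in VHL-null to 2.15 in VHL-restored RCC4 and to 2.70 in p53 wild-type HCT116, and HK3, ENO3 and PKLR stay between -0.15 and 0.27 in all 6.

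Isoenzymes of a step were compared through their changes, since levels of different probe sets cannot be set against each other. A bright reading need not mean that a gene was expressed. Of 4 endothelial markers 3 stood above the array median in each of these carcinoma lines. Whether HK3, PKLR or PFKFB1, whose readings were bright and changed little, were expressed was not tested. At the enolase step, the change of ENO2 less that of ENO1 was 1.64 in VHL-restored and 0.10 in VHL-null RCC4, 2.22 in p53 wild-type and 1.83 in p53-null HCT116, and 0.84 in p53-null H1299. It was -0.96 on the arrays labelled H1299 p53-restored. ENO1, the widely expressed enolase, read 1644 and 2290 at 0 h and 2733 and 2638 at 18 h in VHL-restored RCC4. The muscle enolase ENO3 read 203 to 300 over all 30 arrays. After centring, as against these readings, ENO2 spanned 3.32 on the log2 scale over the 30 arrays, ENO1 1.03 and ENO3 1.05.

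At the aldolase step the pattern depended on the line. ALDOC less ALDOA was 0.78 in p53 wild-type and 0.50 in p53-null HCT116, 0.21 in VHL-restored and -0.05 in VHL-null RCC4, and -0.47 in p53-null H1299, with 0.34 on the arrays labelled p53-restored. ALDOA in H1299 read 1390 at 0 h and 1979 at 24 h in p53-null cells, while ALDOC read 355 and 364. In HCT116 both isoenzymes were higher at 24 h, ALDOC by 1.50 and 1.62 and ALDOA by 1.00 and 0.83.

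At the hexokinase step HK1 changed and HK3 changed little, while HK2 was too dim to test. HK1 less HK3 was 1.03 in VHL-restored and 0.26 in VHL-null RCC4, 1.64 and 1.18 in HCT116, and 1.08 in p53-null H1299, with -1.14 on the arrays labelled p53-restored. HK3, the hexokinase of blood cells, read 543 to 708 over all 30 arrays. HK2, a hexokinase known as a HIF target, was dim by this probe set, with 0 to 127 and 1 null entry, and read 37 and 53 at 0 h against 48 and 47 at 18 h in VHL-restored RCC4. A second HK1 probe set was null on all 30 arrays.

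Among the phosphofructokinases, the brightest PFKP probe set had larger differences than PFKL, the liver type, and PFKM, the muscle type, in HCT116 and VHL-restored RCC4, and there the second PFKP probe set had smaller differences than PFKL. PFKP less PFKM was 0.78 in VHL-restored and 0.25 in VHL-null RCC4, 1.14 and 0.98 in HCT116, and 0.36 in p53-null H1299, with -0.39 on the arrays labelled p53-restored. The second PFKP probe set differed at 24 h by -0.07 in p53-null and 0.10 in p53 wild-type HCT116 and by -0.04 in p53-null H1299, against 0.81, 1.15 and 0.30 by the brightest. PFKL was higher by 0.20 to 0.32 in 5 of 6 backgrounds, and PFKM lay between -0.17 and 0.08 in all 6. Among the enzymes of fructose 2,6-bisphosphate, PFKFB4 less PFKFB1 was 1.37 in VHL-restored RCC4, 0.33 in VHL-null RCC4, 1.75 and 1.72 in HCT116 and 1.32 in p53-null H1299, with -1.24 on the arrays labelled p53-restored. PFKFB1, the liver form, read 443 to 801 and was lower at 24 h by 0.37 in p53-null HCT116. A second PFKFB1 probe set read 129 to 258 and differed there by -0.02. PFKFB3 was dim, at 0 to 108, and read 40 and 18 at 0 h against 82 and 45 at 18 h in VHL-restored RCC4.

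At the last step, LDHA less LDHB was 0.53 in VHL-restored and 0.09 in VHL-null RCC4, 0.77 and 0.94 in HCT116 and 0.45 in p53-null H1299, with -0.58 on the arrays labelled p53-restored. LDHB, the heart subunit, lay between -0.07 and 0.22 in all 6 backgrounds. Between VHL genotypes at 0 h the pair differed in sign: VHL-null cells were higher in LDHA by 1.23 and 0.30 and lower in LDHB by 0.30 and 0.35 in sets 1 and 2, though LDHB was not called. LDHC, the testis form, read 69 to 198. PKLR, the pyruvate kinase of liver and red cells, read 448 to 601 on all arrays by its brightest probe set. A second PKLR probe set was dimmer, at 24 to 109, and its changes lay between -0.2 and 0.32 over the 6 backgrounds. PGK2, the testis phosphoglycerate kinase, was null on 19 of 30 arrays, and PGAM2, the muscle mutase, on 20.

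**Figure D5:**
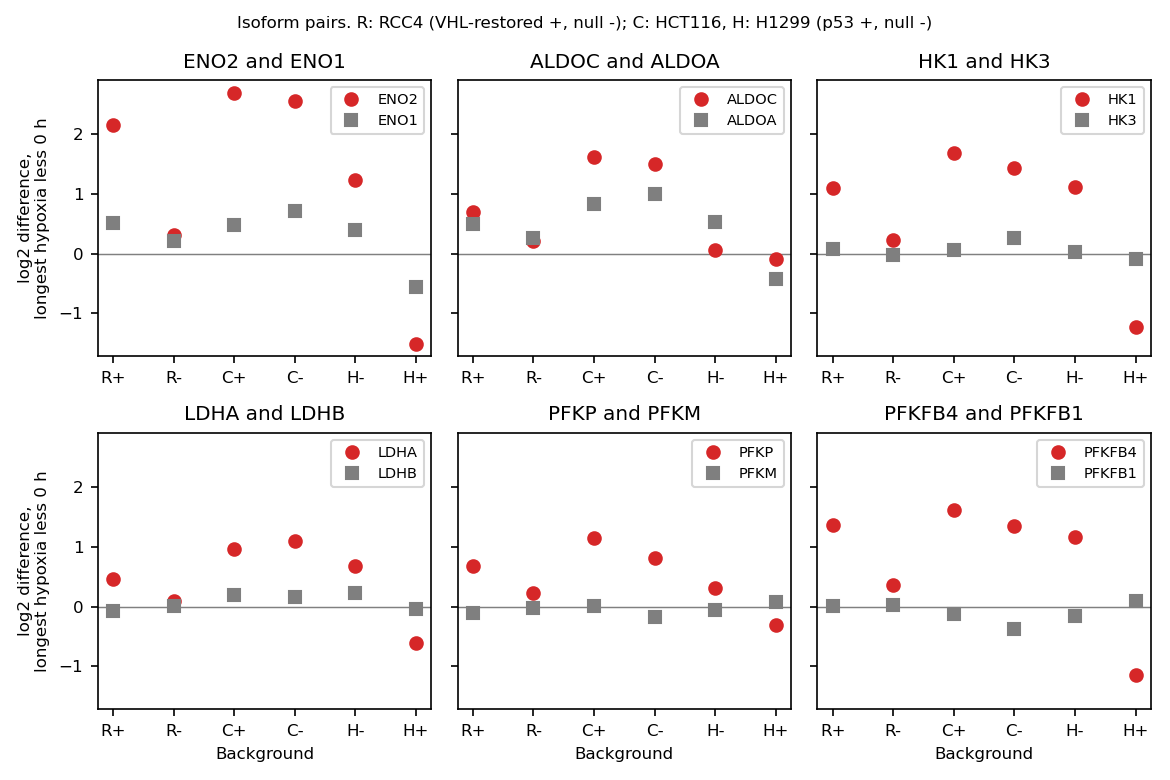
Log2 difference between the longest hypoxia and 0 h (vertical) for 6 pairs of isoenzymes in the 6 backgrounds (horizontal), with the member chosen from these differences as the more responsive as circles and the other as squares, so the order within a pair is in part fixed by that choice. The circles lie above the squares in 5 of 6 backgrounds for every pair but ALDOC and ALDOA, where they do so in 4, and the exception of the 5 pairs is the background labelled H1299 p53-restored.

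Before hypoxia the lines were compared on the 6 arrays of set 1 at 0 h, with genotypes as replicates. Between HCT116 and RCC4, 4 of 22 members were called, where 35.5% of all genes were, so the share of members called was below that of all genes. The RCC4 pair was VHL-null and VHL-restored cells, which differed in some members. They read 737 and 205 in ENO2, 703 and 357 in HK1, and 3098 and 1358 in LDHA. This widens the spread of such members and limits their calls. PFKFB2 (0.80 ± 0.14, adjusted p = 0.00804), PFKFB1 (0.65 ± 0.14, adjusted p = 0.0156) and ENO3 (0.40 ± 0.11, adjusted p = 0.0319) were higher in HCT116. PGAM1, at 608 and 696 in HCT116 and 1584 and 1264 in RCC4, was lower by 0.95 ± 0.18 (adjusted p = 0.0105), and after the longest hypoxia this difference was 0.16 the other way and not called (adjusted p = 0.389). Between H1299 and RCC4, ENO3 (0.42 ± 0.11, adjusted p = 0.0296) and PFKM (0.38 ± 0.10, adjusted p = 0.0297) were higher in H1299 (background 31.3%). Between HCT116 and H1299, LDHB was lower in HCT116 by 0.65 ± 0.14 (adjusted p = 0.0451; background 6.35%), with 757 and 733 against 1111 and 1279. Without the 0 h array labelled H1299 p53-restored, the calls between H1299 and RCC4 were PFKFB1 (0.61) and PFKP (-0.86; background 22.5%). Between HCT116 and H1299, 0 were then made (background 5.06%), and between HCT116 and RCC4 there were 6 (background 35.9%), with ALDOA (-0.52) and HK1 (-0.99) lower in HCT116 beside the 4 above. Array scaling mattered here, since without centring the calls were 2 higher and 2 lower for HCT116 against RCC4 and 0 higher and 1 lower for H1299 against RCC4.

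Genes beside the pathway were read from lists of related steps. In VHL-restored RCC4 at 18 h, with the replicate block, 6.6% of all tested genes were called. There 7 of 10 tested HIF targets outside glycolysis rose and 0 fell (median 1.38), among them ADM (2.80 ± 0.13), CA12 (1.59 ± 0.10) and BNIP3 (2.38 ± 0.16). Of 7 genes of pyruvate and lactate fate, PDK1, the kinase that turns off pyruvate dehydrogenase, rose by 1.53 ± 0.12 (adjusted p = 2.52e-07) and PDP1, the opposing phosphatase, fell by 0.40 (adjusted p = 0.0371). Of 5 genes of gluconeogenesis 1 rose, PCK2 (0.59 ± 0.12, adjusted p = 0.00652). None of 7 genes of glucose entry, 7 of the pentose phosphate and related branches or 6 of the glycerol phosphate and malate shuttles was called, with medians of -0.03, 0.01 and -0.19. In the 20-array fit (0.421% of all genes called) the calls in these lists were BNIP3 (adjusted p = 0.0354) and PDK1 (adjusted p = 0.0103). PDK1 was also higher in VHL-null than VHL-restored cells at 0 h (1.12 ± 0.12, adjusted p = 6.38e-06, with the block), and rose in HCT116 at 24 h (1.69 ± 0.14, adjusted p = 0.0158, without the arrays labelled H1299 p53-restored).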

How the data were processed

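The authors deposited linear array intensities in whole numbers with null entries, at the probe-set level; per the labels' protocols, RNA was handled by an Affymetrix GeneChip protocol, and the scaling method and the meaning of null are not given in the sources used here. Null entries were 18.4% to 40.4% of an array. They were taken as 0, values were analysed as log2(intensity + 16), and each array was centred on its median gene, since array medians spanned 0.906 on the log2 scale. Differences are on that scale and understate changes of dim genes. Symbols came from the platform annotation: of 17478 annotated probe sets, 16905 had 1 symbol and 573 several, and the brightest probe set of a gene was used.

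Tests were two-sided, in limma 3.58.1 (R 4.3.3), with Benjamini-Hochberg adjustment over 7608 genes and a threshold of 0.05, and called means past that threshold. RCC4 was fitted on 20 arrays with genotype by phase and the array set. HCT116 and H1299 were fitted together on 10 arrays, the 6 backgrounds as pairs, and the lines on 6 arrays. Tools were tested on simulated data. The number of arrays limits the precision, and p-values reflect the spread among these arrays alone.

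Replicate numbers at 0 and 18 h equal the array set. Replicate differences correlated at 0.794 to 0.916 over 6 pairs of groups, computed over genes that are not independent. A pairing of the samples and a difference between the array sets cannot be told apart here, and the block stands for both. Values with the block are given where they change a call.

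The members and gene lists were chosen with earlier results of these data known. Named genes are the members past the test, up to the 8 with the largest difference in a comparison, the isoenzymes of a step, and up to 3 genes of each related list by limma's statistic. The fits of each time on its own and those without the arrays labelled H1299 p53-restored were chosen after seeing the data. Other alternatives were another pseudocount (64), no filter, no centring, quantile normalization, no array set and each replicate left out. Promoter sequences are from RefSeq, GRCh38.p14. Python 3.11.15 with pandas 2.3.3 and matplotlib 3.10.9 did the rest. The test of genotype pooled over HCT116 and H1299 is not reported here.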

Additional observations from a re-analysis of the deposited data

Results flagged for a closer look

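In H1299 the members of glycolysis that were higher at 24 h in p53-null cells were lower on the arrays labelled p53-restored, and the difference between the genotypes was not tested, since each group is 1 array. The change in p53-null cells less that on the arrays labelled p53-restored was 2.75 (log2) for ENO2, 2.49 for SLC2A3, 2.34 for HK1, 2.32 for PFKFB4, 1.87 for GPI, 1.29 for LDHA and 1.28 for PGK1. HK1, for example, differed by 1.11 in p53-null cells and by -1.23 on the arrays labelled p53-restored, and ENO2 by 1.24 and -1.51. Over the 22 tested members, each array labelled p53-restored lay within 0.23 of the p53-null array at the other time. Whether these differences come from p53 or from the labels was not tested.

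In RCC4 the response to 18 h of hypoxia was compared between VHL-null and VHL-restored cells by the interaction test in limma. With the replicate block ENO2 (-1.84), PFKFB4 (-1.01) and HK1 (-0.87) were called, where 0.565% of all genes were. Without the block, no member was called on the same arrays. In the fit over all RCC4 arrays no member was called either, and 0% of all genes were. The calls of ENO2, PFKFB4 and HK1 thus rested on the block, while the sizes of their differences did not. Without the block these genes had the same differences on the same arrays, with larger errors. For ENO2 the error was 0.29 without the block and 0.15 with it. In both array sets these genes changed less in VHL-null than in VHL-restored cells. ENO2 changed by 0.28 and 0.35 in VHL-null cells and by 2.10 and 2.21 in VHL-restored cells.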

How the results depend on the processing

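Counts below are members called, of 22. In VHL-restored RCC4 at 18 h (4 called), 9 were called with the replicate block on 8 arrays, 1 with no replicate block there, 0 with no array set, 2 with no centring, 0 with no filter on dim genes and 1 after quantile normalization. Leaving out 1 replicate gave 0 to 3. For VHL-null against VHL-restored at 0 h (4 called), the 8 arrays gave 6 with the replicate block and 1 with no replicate block, and 0 were called with no array set or no filter. Leaving out 1 replicate gave 0 to 4. At 18 h (1 called), 0 were called with no replicate block or no array set, 2 after quantile normalization, and 0 to 1 without 1 replicate. The interaction (0 called) had 3 with the replicate block, which changed no other call. With each time on its own, VHL-restored cells (0 called with times pooled) had 7 at 1 h, 8 at 4 h, 2 at 6 h and 1 at 4 h of reoxygenation. Without the arrays labelled H1299 p53-restored, HCT116 had 9 at 12 h and 10 at 24 h (1 each with them), and HCT116 against H1299 had 0 (1 with them). With no filter, HCT116 at 12 h had 0. HCT116 against H1299 also had 0 with no centring, no filter or quantile normalization. With the longest hypoxia in place of 0 h, 13 were called for H1299 against RCC4 (2 at 0 h), 7 for HCT116 against RCC4 (4 at 0 h) and 4 for HCT116 against H1299. H1299 against RCC4 had 1 with no centring. PGAM1 in HCT116 against RCC4 turned from -0.95 to 0.16 at the longest hypoxia. Of 187 alternative values of the 18 called genes and comparisons, 100 kept direction and call, 86 kept direction and lost the call, and 1 reversed. The cause of these changes was not tested. Most groups are 1 array, dim probe sets such as HK2 and PFKFB3 set no limit on their genes, and GAPDH may be bounded by the top of the scale.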

Other observations

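In HCT116 at 24 h 3 genes next to glycolysis fell in the fit without the arrays labelled H1299 p53-restored, where 4% of all genes were called and 10 of 22 glycolytic genes rose. PCK2, the mitochondrial enzyme that makes phosphoenolpyruvate, fell by 0.78 on the log2 scale (adjusted p = 0.0306 in limma). GOT1, the cytosolic aspartate aminotransferase of the malate shuttle, fell by 0.99 (adjusted p = 0.0266). PSAT1, which draws on a glycolytic intermediate to make serine, fell by 1.00 (adjusted p = 0.0306). At 12 h none of these was called, and with all 10 arrays none was called at 24 h (adjusted p = 0.407, 0.49 and 0.315). In H1299 the 24 h differences depended on the pair of arrays. With both genotypes in the fit they were -0.02 for GOT1, 0.05 for PCK2 and -0.04 for PSAT1. The arrays labelled p53-restored thus ran opposite to the p53-null arrays in these genes too. In p53-null H1299, in the fit without the p53-restored arrays, the differences were opposite in sign to those in HCT116. GOT1 rose by 1.64 (adjusted p = 0.0473; 0.302% of all genes called), while PCK2 differed by 1.11 (adjusted p = 0.0742) and PSAT1 by 1.00 (adjusted p = 0.152), with 1 array on each side. In VHL-restored RCC4 at 18 h PCK2 rose by 0.59 with the replicate block (adjusted p = 0.00652), and the difference between the lines was not tested.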
